A study of Homo sapiens with 14 samples.

Results

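R-spondins, their LGR receptors and the ligases RNF43 and ZNRF3 were followed as 9 genes out of 57445 gene entries, picked by symbol: the ligands RSPO1, RSPO2, RSPO3 and RSPO4, the receptors LGR4, LGR5 and LGR6, and the ligases. The cells were H9 (WA-09), an established human pluripotent stem cell line, and cultures derived from it toward midbrain dopamine neurons. Total RNA was sequenced in 2 libraries per group, and the labels do not say that these came from separate cultures, so p-values measure only the spread between the libraries. Undifferentiated cells (hPSC) were the baseline. At day 11 there were 4 groups, which differed in their concentration of CHIR99021 (CHIR), an inhibitor of the kinase GSK3: it was 0.7, 3, 5 or 7.5 µM from day 4 to day 10 (day 9 in the series text). All derived cultures started in 0.7 µM CHIR with SHH C25II, LDN, SB431542 and ROCK inhibitor until day 3. LDN, SB431542 and SHH were removed on day 7, and from day 10 every arm had BDNF, ascorbic acid, GDNF, TGFβ3, dibutyryl cAMP and 3 µM CHIR, so that on day 11 all arms were in the same medium. Cultures of the 7.5 µM arm were also sequenced under the labels day 16 and day 30.

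RNF43 and ZNRF3 are membrane ubiquitin ligases that mark Frizzled and LRP6, the WNT receptors, for removal from the cell surface. R-spondins are secreted proteins that bind an LGR receptor and one of these ligases together, which clears the ligase and leaves more WNT receptor on the cell. LGR5, RNF43, ZNRF3 and AXIN2 are textbook targets of beta-catenin, the protein that GSK3 inhibition stabilises, and in the mouse neural tube Rspo1 and Rspo3 are known for expression at the roof plate, its dorsal midline.

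The hPSC and day 11 libraries held 20.52 to 44.76 M gene counts. Levels are given in CPM, the count of a gene scaled to the gene counts of its library, and levels are compared between genes only per kilobase of exon. In bulk RNA, fewer cells of a type and less RNA per cell cannot be told apart. The day 11 labels were checked on markers. Neural progenitor markers summed to 6966 to 10335 CPM at day 11, against 799 to 1217 CPM in hPSC, and midbrain floor plate markers to 337 to 1170 CPM, against 31.4 to 33.2 CPM. VIM alone had 4974 to 8724 CPM of the neural progenitor sum at day 11, against 59.9 to 154 CPM in hPSC, while SOX2 had 132 to 443 CPM, against 228 to 299 CPM. At 7.5 µM against hPSC 3 of 10 neural progenitor markers passed as higher. Pluripotency markers summed to 1168 to 1894 CPM at day 11, against 4630 to 5044 CPM in hPSC, with NANOG, TDGF1, UTF1 and PRDM14 under 0.5 CPM in every day 11 library. LIN28A made up most of that day 11 sum, with 1107 to 1781 CPM, against 1348 to 1847 CPM in hPSC. At day 11 the libraries differed by replicate number as well as by CHIR: the first principal component, with 56.8% of the variance, separated replicate 1 from replicate 2. Replicate 1 at 7.5 µM stood apart on it, at −1.8, against −102 to −92.5 for the other replicate 1 libraries and 65.6 to 81.4 for replicate 2. Same-numbered libraries deviated together (correlations 0.64 to 0.86 over the 6 pairs of day 11 groups), so a second fit of each day 11 comparison had the replicate number as a block. That block takes the replicate difference to be the same at every concentration. Correlations with the 7.5 µM group were the lowest, 0.64 to 0.68. Log2 ratios of replicate 2 over replicate 1 were 1.35 for LGR4 and 1.22 for RNF43 at 7.5 µM. At the lower concentrations they were 2.81 to 4.07 and 1.93 to 3.91. For these 2 genes the blocked values at 7.5 µM therefore average over unlike replicate differences.

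With the replicate block, 6 of the 9 genes passed the test between 7.5 and 0.7 µM (adjusted p under 0.05): RSPO1, RSPO3, LGR5 and RNF43 were higher at 7.5 µM, and RSPO2 and LGR4 were lower. RSPO4, LGR6 and ZNRF3 did not pass. Over all 18709 genes tested, 1967 were called in this fit (10.5%), 1056 of them higher and 911 lower. Without the block, edgeR called 0 genes (0%), none of the 9 among them, with 1641 genes at an unadjusted p under 0.05 and 659 called by DESeq2, which called 3 of the 9. In what follows, rose, fell and changed refer at day 11 to the blocked fit of edgeR's quasi-likelihood test with Benjamini-Hochberg adjustment. Without replicate 1 of 7.5 µM, the library that stood apart, RNF43 lost its call (log2 fold change 1.19). The other genes that had passed kept theirs.

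**Figure D1:**
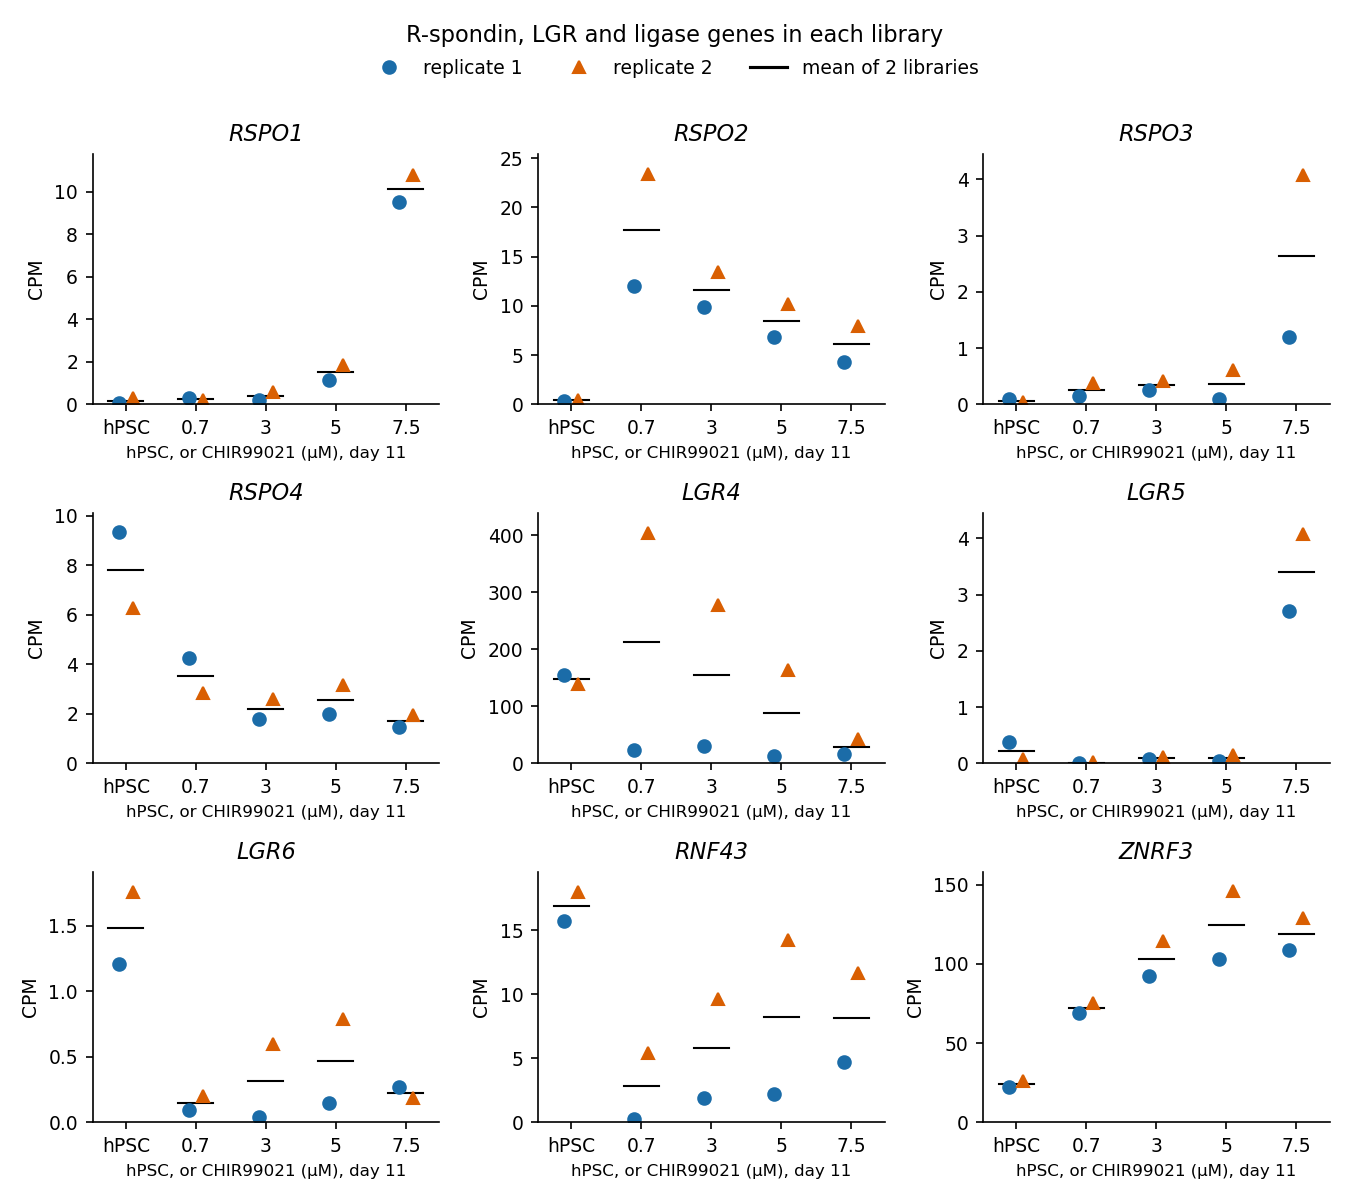
Level in CPM (linear axis from 0) of each of the 9 genes in every hPSC and day 11 library, by CHIR concentration; circles are replicate 1, triangles replicate 2 and lines the mean of 2 libraries. RSPO1, RSPO3 and LGR5 are highest at 7.5 µM, and RSPO2 is highest at 0.7 µM. LGR4 and RNF43 are higher in replicate 2 at every concentration, as are RSPO2, RSPO3, LGR5 and ZNRF3.

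Among the ligands, RSPO1 had the largest log2 fold change with CHIR. It had 0.0619 and 0.279 CPM in hPSC, 0.292 and 0.223 CPM at 0.7 µM, 0.225 and 0.564 CPM at 3 µM, 1.16 and 1.87 CPM at 5 µM, and 9.50 and 10.8 CPM at 7.5 µM. Both 5 µM libraries lay above all libraries of lower concentration, and both 7.5 µM libraries lay above both 5 µM libraries. RSPO1 rose by a log2 fold change of 5.18 ± 0.48 (SE, adjusted p = 0.000551 with the replicate block, 0.143 without) at 7.5 µM against 0.7 µM. Within each replicate number the log2 ratio of CPM + 0.5 was 3.66 and 3.97. This call held when any 1 of the 4 libraries was left out of the blocked fit.

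RSPO3, which shares the R-spondin domains of RSPO1, stayed below 1 CPM up to 5 µM. Its levels were 0.0929 and 0.0399 CPM in hPSC, 0.146 and 0.380 CPM at 0.7 µM, 0.263 and 0.423 CPM at 3 µM, 0.0963 and 0.613 CPM at 5 µM, and 1.19 and 4.08 CPM at 7.5 µM. Only the 7.5 µM libraries, among these 10, exceeded 1 CPM, and they differed from each other more than the RSPO1 values did. It rose by 3.06 ± 0.58 on the log2 scale at 7.5 µM against 0.7 µM (SE, adjusted p = 0.0104 with the replicate block, 0.424 without). The adjusted p became 0.0508 without replicate 1 of 0.7 µM and 0.105 without replicate 2 of 0.7 µM, with log2 fold changes of 3.10 and 2.99.

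RSPO2 moved the other way. Its levels were 0.372 and 0.479 CPM in hPSC, 12.03 and 23.3 CPM at 0.7 µM, 9.91 and 13.4 CPM at 3 µM, 6.79 and 10.2 CPM at 5 µM, and 4.31 and 7.98 CPM at 7.5 µM. Within each replicate number the value was lower at every step of concentration, and the 2 libraries of 7.5 µM lay below both of 0.7 µM. At 7.5 µM against 0.7 µM the log2 fold change was −1.69 ± 0.32 (SE, adjusted p = 0.0107 with the replicate block, 0.364 without). Without replicate 2 of 0.7 µM it was −1.39 and its adjusted p 0.0840.

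RSPO4, which is known for its part in nail formation, had its highest level in undifferentiated cells, with 9.35 and 6.27 CPM in hPSC, 4.24 and 2.84 CPM at 0.7 µM, 1.80 and 2.61 CPM at 3 µM, 1.97 and 3.15 CPM at 5 µM, and 1.49 and 1.96 CPM at 7.5 µM. Both 7.5 µM libraries lay below both of 0.7 µM, and the log2 fold change between 7.5 and 0.7 µM was −1.21 ± 0.40 (SE, adjusted p = 0.0818 with the replicate block, 0.529 without). DESeq2 with the block gave an adjusted p of 0.0398 for it, and leaving out replicate 2 of 7.5 µM gave 0.0427.

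The make-up of the R-spondin transcripts therefore differed by group, as read per kilobase of exon. RSPO1 made up 61.0% and 47.0% of the summed R-spondin CPM per kb at 7.5 µM, against 2.04% and 1.05% at 0.7 µM. RSPO2 made up 20.7% and 26.0% at 7.5 µM, against 63.2% and 82.1% at 0.7 µM. In hPSC, RSPO4 held 96.1% and 91.3%. RSPO3 reached its highest shares at 7.5 µM, 7.41% and 17.2%. The leading ligand was thus RSPO4 in both hPSC libraries, RSPO2 in all 6 libraries from 0.7 to 5 µM, and RSPO1 in both libraries of 7.5 µM.

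**Figure D2:**
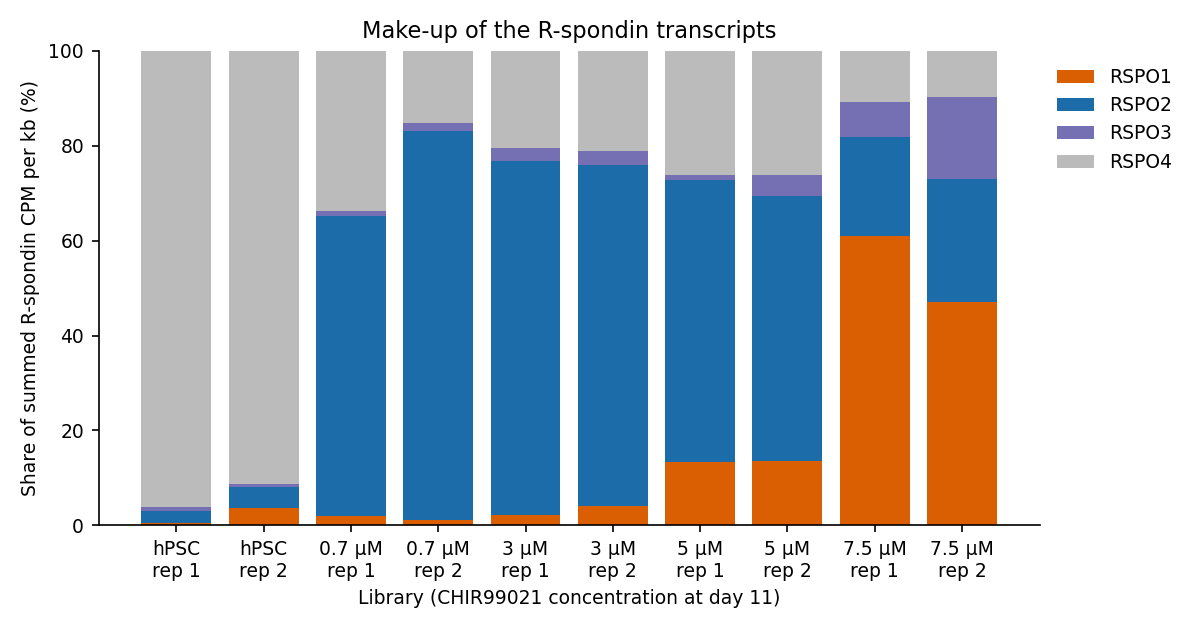
Share (%) of each R-spondin gene in the summed R-spondin CPM per kilobase of exon, one bar per hPSC or day 11 library. RSPO4 fills most of the hPSC bars, RSPO2 most of the bars from 0.7 to 5 µM, and RSPO1 is the largest part at 7.5 µM (61.0% and 47.0%).

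Of the receptors, LGR5, known as a marker of WNT-driven stem cells in the gut, was nearly absent at day 11 except at 7.5 µM. It had 12 and 2 counts in hPSC, 0 and 1 count at 0.7 µM, 2 and 3 counts at 3 µM, 1 and 5 counts at 5 µM, and 91 and 131 counts at 7.5 µM. In CPM these came to 0.372 and 0.0798 in hPSC and to 2.70 and 4.08 at 7.5 µM. The ratio of summed counts at 7.5 µM over 0.7 µM, scaled to TMM effective library sizes, was 197, with a 95% exact binomial interval of 34.9 to 7800 that covers counting error only. The adjusted p of LGR5 was 0.000727 with the replicate block and 0.143 without, and the blocked call held when any 1 of the 4 libraries was left out. At 5 µM over 0.7 µM the ratio of counts was 7.30, with an interval of 0.885 to 336, so that a difference below 7.5 µM was not detectable at this depth.

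LGR4, a receptor found in many tissues, differed widely between replicates at day 11. It had 155 and 139 CPM in hPSC, 23.5 and 403 CPM at 0.7 µM, 30.5 and 278 CPM at 3 µM, 13.2 and 164 CPM at 5 µM, and 15.7 and 42.1 CPM at 7.5 µM. Replicate 2 was the higher library at each of the 4 concentrations, by 17.2, 9.13, 12.4 and 2.68 times. The log2 fold change at 7.5 µM against 0.7 µM was −2.04 ± 0.52 (SE, adjusted p = 0.0353) with the replicate block and −3.06 ± 1.67 (adjusted p = 0.713) without. The log2 ratio of CPM + 0.5 was −0.57 within replicate 1 and −3.25 within replicate 2, so the fall was seen mostly in replicate 2. Without replicate 2 of 0.7 µM the blocked log2 fold change was −1.21 and its adjusted p 0.195.

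LGR6 stayed low. It had 1.21 and 1.76 CPM in hPSC and 0.0375 to 0.789 CPM over the 8 day 11 libraries, from 1 to 27 counts each. At 7.5 µM it had 0.267 and 0.187 CPM, against 0.0974 and 0.201 CPM at 0.7 µM (log2 fold change 0.66 ± 0.96, SE, adjusted p = 0.688 with the replicate block). Per kilobase, LGR4 made up 81.2% and 89.0% of the LGR sum at 7.5 µM, against 99.4% and 99.9% at 0.7 µM, and LGR5 made up 16.9% and 10.4% at 7.5 µM.

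Both ligases were higher at 3, 5 and 7.5 µM than at 0.7 µM within each replicate number, and RNF43 passed the test at 7.5 µM; the difference between the genes was not tested. ZNRF3 had 22.1 and 26.3 CPM in hPSC, 69.0 and 75.5 CPM at 0.7 µM, 92.2 and 114 CPM at 3 µM, 103 and 146 CPM at 5 µM, and 108.5 and 129 CPM at 7.5 µM. All 6 libraries from 3 to 7.5 µM lay above both of 0.7 µM. The log2 fold change at 7.5 µM against 0.7 µM was 0.54 ± 0.23 (SE, adjusted p = 0.150 with the replicate block, 0.757 without), which did not pass the test. RNF43 had 15.8 and 18.0 CPM in hPSC, 0.292 and 5.41 CPM at 0.7 µM, 1.91 and 9.65 CPM at 3 µM, 2.21 and 14.3 CPM at 5 µM, and 4.69 and 11.6 CPM at 7.5 µM. The groups overlapped, and replicate 2 was the higher library at each concentration. RNF43 rose by 1.94 ± 0.54 on the log2 scale at 7.5 µM against 0.7 µM (SE, adjusted p = 0.0474 with the replicate block, 0.887 without). Its adjusted p was 0.174 without replicate 1 of 0.7 µM, where the count was 6, and 0.131 without replicate 1 of 7.5 µM, with log2 fold changes of 1.22 and 1.19.

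**Figure D3:**
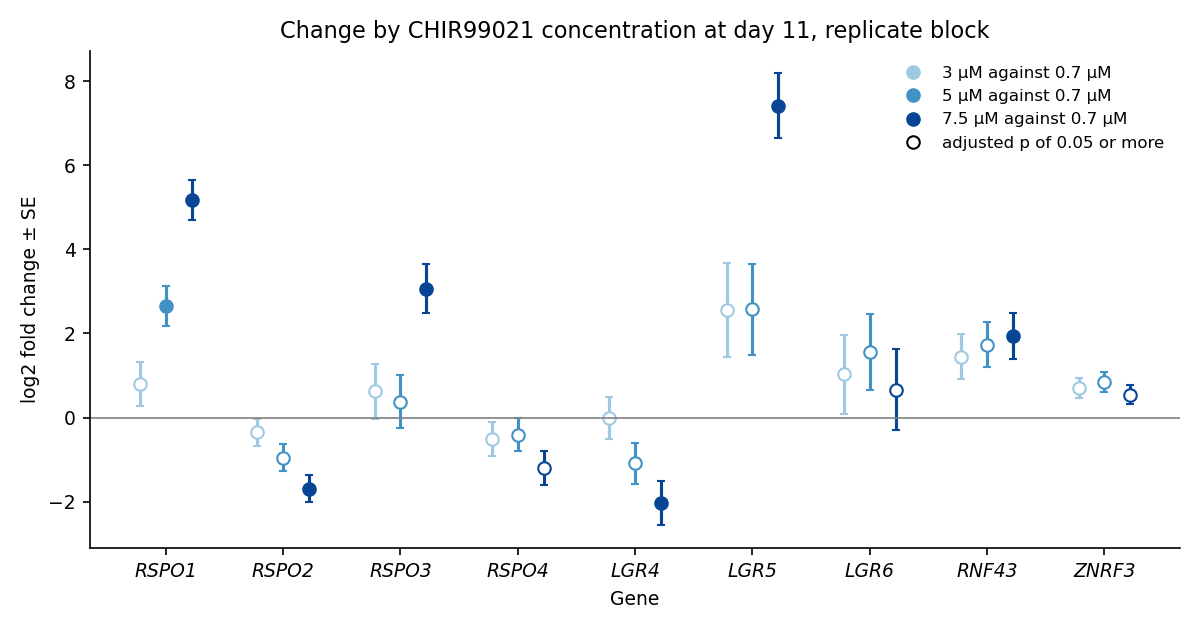
Log2 fold change ± SE of the 9 genes at 3, 5 and 7.5 µM CHIR against 0.7 µM at day 11, from the fit with the replicate block; open symbols have an adjusted p of 0.05 or more. Of the 3 concentrations, 7.5 µM has 6 filled symbols, 5 µM has 1 (RSPO1) and 3 µM has 0; the fitted LGR5 values rest on 1 count at 0.7 µM.

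The intermediate concentrations showed at which step the genes passed the test. At 3 µM against 0.7 µM none of the 9 genes passed in the blocked fit, where 4 of 18709 genes did (0.0214%), with 1400 at an unadjusted p under 0.05 and 191 called by DESeq2 with the block. At 5 µM against 0.7 µM only RSPO1 did (log2 fold change 2.65 ± 0.48, SE, adjusted p = 0.0302), where 1.13% of all genes were called, and leaving out any 1 of the 4 libraries took the adjusted p to between 0.110 and 0.216. Other blocked fits of this comparison called RNF43 as higher (adjusted p = 0.0252 with DESeq2, 0.00127 with no filter on low counts) and LGR4 as lower (0.0138 with no filter), and with no filter RNF43 also passed at 3 µM (0.0388). At 7.5 µM against 5 µM, where 6.53% of genes were called, RSPO1 (2.53 ± 0.40, adjusted p = 0.0153), RSPO3 (2.68 ± 0.56, adjusted p = 0.0297) and LGR5 (4.84 ± 0.61, adjusted p = 0.00993) rose on the log2 scale. These 3 calls were lost without either library of 5 µM, when 30 and 5 genes were called in all. RSPO2 (−0.74 ± 0.32), LGR4 (−0.95 ± 0.50), RNF43 (0.20 ± 0.51) and ZNRF3 (−0.30 ± 0.23) did not pass between 7.5 and 5 µM. LGR4 ran from −2.15 to −0.11 with 1 library left out, and it passed without replicate 1 of 7.5 µM (−2.15, adjusted p = 0.0142) and with no filter on low counts (adjusted p = 0.0419). Without the block, edgeR called 0 genes (0%) in each of these 3 comparisons, with 276, 567 and 1168 genes at an unadjusted p under 0.05 for 3 against 0.7, 5 against 0.7 and 7.5 against 5 µM, and 16, 129 and 193 called by DESeq2.

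As a slope per doubling of CHIR over the 8 day 11 libraries, RSPO1 rose by 1.497 ± 0.29 (SE, adjusted p = 0.0451) and LGR5 by 3.07 ± 0.53 (adjusted p = 0.0287) on the log2 scale with the replicate block, where 1.19% of genes were called. Without the block neither passed (adjusted p = 0.136 and 0.115), and 0.134% of genes were called. The change per doubling was not even, so these slopes are averages over the range. With the block, RSPO1 had a log2 fold change of 0.80 at 3 against 0.7 µM. At 7.5 against 5 µM, a smaller step in doublings, it was 2.53 for RSPO1 and 4.84 for LGR5. The LGR5 slope also rests on 0 and 1 count at 0.7 µM, and ran from 2.16 to 4.10 with 1 library left out. The slope of RSPO2 was −0.44 ± 0.12 (adjusted p = 0.136) and that of RNF43 was 0.61 ± 0.17 (adjusted p = 0.156) with the block, and both passed under DESeq2 with the block (adjusted p = 0.00916 and 0.00662). The RSPO1 slope kept its call only without replicate 1 of 3 µM, of the 8 libraries left out in turn, and its adjusted p was 0.0619 to 0.160 without each of the others. The LGR5 slope lost its call without replicate 1 of 0.7 µM, replicate 2 of 3 µM or either library of 7.5 µM (adjusted p 0.0632 to 0.166).

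Promoter sequence was looked at for those of the 9 genes that had a window. Windows from 250 bases before to 50 bases after the start were given for 6 of the 9 genes, 9 windows in all, in the RefSeq table for GRCh38.p14. RSPO2, LGR5 and ZNRF3 had no window. The TCF/LEF core CTTTGA, the sequence bound by the partners of beta-catenin, was searched on both strands and was found in none of the 9 windows. Of 35114 windows of all genes 12.9% held it, and 9 windows are too few to tell 0 from that share. The shorter run CTTTG, which lies inside that core, was then searched on both strands, a choice made after the first result, in the 250 bases before the start, and 42.1% of all windows held it. The 250 bases are shown for RSPO1, RSPO3 and RNF43, the genes with a window that were higher at 7.5 µM than at 0.7 µM. They run 5′ to 3′ in the direction of the gene, with CTTTG or its reverse complement CAAAG in capitals. They lie at chr1:37634893-37635142 on the minus strand, chr6:127118421-127118670 on the plus strand and chr17:58417535-58417784 on the minus strand.
RSPO1: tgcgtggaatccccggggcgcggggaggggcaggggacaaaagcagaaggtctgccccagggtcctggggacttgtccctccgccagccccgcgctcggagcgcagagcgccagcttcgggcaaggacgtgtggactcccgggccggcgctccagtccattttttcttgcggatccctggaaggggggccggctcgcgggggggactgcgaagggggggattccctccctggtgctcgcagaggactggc
RSPO3: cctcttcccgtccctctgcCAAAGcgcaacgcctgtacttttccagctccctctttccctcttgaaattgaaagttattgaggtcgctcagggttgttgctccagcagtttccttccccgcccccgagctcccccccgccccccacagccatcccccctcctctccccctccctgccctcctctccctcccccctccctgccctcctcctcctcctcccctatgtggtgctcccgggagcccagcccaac
RNF43: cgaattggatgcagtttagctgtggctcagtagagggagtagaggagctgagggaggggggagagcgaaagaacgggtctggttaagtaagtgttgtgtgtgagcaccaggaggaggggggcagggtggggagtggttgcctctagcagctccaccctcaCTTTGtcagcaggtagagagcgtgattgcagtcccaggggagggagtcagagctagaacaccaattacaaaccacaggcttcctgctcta
RSPO1 held 0 matches and RSPO3 and RNF43 1 each. The RSPO1 and RSPO3 stretches were 70.8% and 64.8% G and C, and that of RNF43 was 56.0%, against a median of 58.7% over the full windows of all genes. Of all 9 windows, 4 held at least 1 match, a share near that of all genes. Among those not shown, a second RNF43 window held 1, a window of LGR6, which did not pass the test, held 2, and those of RSPO4 and LGR4 and the other two of LGR6 held 0. A match is a description of these letters and not a binding site.

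Against undifferentiated cells, the 9 genes showed which parts of the system were present before differentiation. At 7.5 µM on day 11, 5 of the 9 were higher than in hPSC and 1 lower, where 1978 of 19672 genes were called (10.1%). The higher genes were RSPO1 (log2 fold change 5.90 ± 0.75, adjusted p = 0.00462), RSPO2 (3.83 ± 0.52, adjusted p = 0.00542), RSPO3 (5.16 ± 1.07, adjusted p = 0.0239), LGR5 (3.84 ± 0.81, adjusted p = 0.0246) and ZNRF3 (2.28 ± 0.31, adjusted p = 0.00521), and the lower gene was RSPO4 (−2.18 ± 0.44, adjusted p = 0.0210; SE, edgeR without a block). At 0.7 µM, where 11.4% of genes were called, only RSPO2 (5.53 ± 0.56, adjusted p = 0.00258) and ZNRF3 (1.74 ± 0.30, adjusted p = 0.0117) were higher than in hPSC, and none was lower. Both comparisons share the hPSC libraries.

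LGR6 had log2 fold changes of −2.68 ± 1.05 (adjusted p = 0.167) at 7.5 µM and −3.05 ± 1.08 (adjusted p = 0.113) at 0.7 µM against hPSC, and RNF43 had −1.07 ± 1.22 (adjusted p = 0.712) and −2.39 ± 1.28 (adjusted p = 0.262). With a replicate block within day 11 only, LGR4 (−2.35, adjusted p = 0.00236) and LGR6 (−2.63, adjusted p = 0.0120) also passed at 7.5 µM. In that fit at 0.7 µM, RSPO4, LGR5, LGR6 and RNF43 (−3.03, adjusted p = 0.000429) passed as lower. Of all 19672 genes tested, the same fit called 6838 at 7.5 µM and 9064 at 0.7 µM, far more than without a block. With either hPSC library left out, calls were lost among the 9 and over all genes. Of the 9, RSPO1 alone kept its call at 7.5 µM and RSPO2 alone at 0.7 µM. With either library of 7.5 µM left out, calls over all genes were lost too, and RSPO1, RSPO2 and ZNRF3 kept theirs. The log2 fold changes at 7.5 µM then ran from 3.36 to 4.18 for RSPO2 and 2.15 to 2.44 for ZNRF3 over all libraries left out. RSPO3 ran from 4.07 to 5.85, LGR5 from 3.19 to 5.31 and RSPO4 from −2.42 to −1.88.

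**Figure D4:**
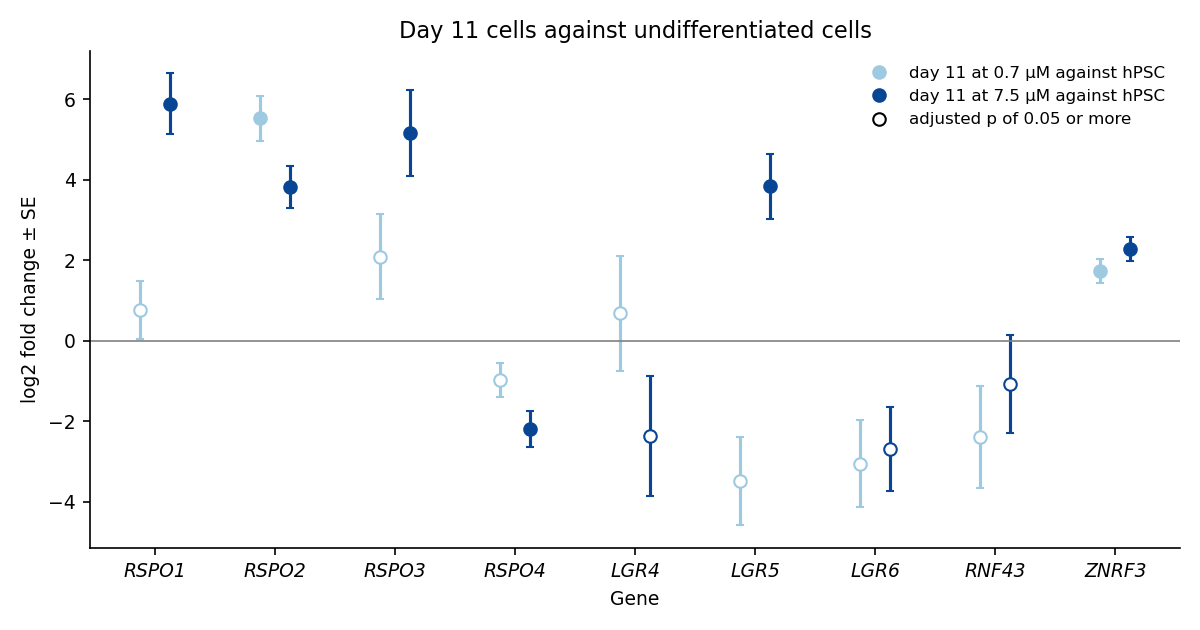
Log2 fold change ± SE of the 9 genes in day 11 cultures at 0.7 and 7.5 µM CHIR against hPSC, from edgeR without a block; open symbols have an adjusted p of 0.05 or more. RSPO2 and ZNRF3 are above hPSC at both concentrations. RSPO1, RSPO3 and LGR5, above hPSC, and RSPO4, below it, have filled symbols only at 7.5 µM.

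The order of the levels per kilobase differed between the groups. In hPSC, LGR4 led with a mean of 23.2 ± 1.76 CPM per kb (SD, n = 2), followed by ZNRF3 (3.48 ± 0.42), RSPO4 (2.88 ± 0.81), RNF43 (2.25 ± 0.21), LGR6 (0.323 ± 0.085), RSPO2 (0.103 ± 0.019), RSPO1 (0.0552 ± 0.0497), LGR5 (0.0430 ± 0.0393) and RSPO3 (0.0209 ± 0.0117). ZNRF3, RSPO4 and RNF43 overlapped with their neighbours there, as did RSPO2, RSPO1, LGR5 and RSPO3. At 7.5 µM, ZNRF3 led with 17.03 ± 2.07 CPM per kb, above LGR4 (4.55 ± 2.94), RSPO1 (3.29 ± 0.30), RSPO2 (1.49 ± 0.63), RNF43 (1.09 ± 0.65), RSPO3 (0.829 ± 0.644), LGR5 (0.646 ± 0.186), RSPO4 (0.636 ± 0.125) and LGR6 (0.0495 ± 0.0124). LGR4 overlapped with RSPO1 at 7.5 µM, and each gene from RSPO2 to LGR5 overlapped with the next in order. At 0.7 µM, LGR4 (33.7 ± 42.4) overlapped with both ZNRF3 (10.4 ± 0.66) and RSPO2 (4.30 ± 1.94). ZNRF3, RSPO2 and RSPO4 (1.31 ± 0.37) did not overlap with one another there.

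LGR4 and RNF43 differed by replicate number more than most genes. On the TMM scale, replicate 2 over replicate 1 gave log2 ratios for LGR4 of 4.07 at 0.7 µM, 2.81 at 3 µM, 3.29 at 5 µM and 1.35 at 7.5 µM, and the mean of these was at the 99.3 percentile of all 19672 genes. RNF43 gave 3.91, 1.93, 2.32 and 1.22, at the 97.8 percentile. ZNRF3 gave 0.10, −0.07, 0.16 and 0.17, and RSPO1 −0.34, 0.81, 0.34 and 0.11. Of all genes, 33% were higher in replicate 2 at all 4 concentrations and 32% lower. The sum of the mesenchymal and vascular markers (9 of 10 measured) moved with replicate number too, coming to 295 to 568 CPM in the replicate 2 libraries and 50.8 to 81.9 CPM in the replicate 1 libraries of day 11, with DCN and CDH5 under 0.5 CPM in all of them. COL1A2 alone had 228 to 437 CPM in the replicate 2 libraries, and LUM was lower in replicate 2 than in replicate 1 at all 4 concentrations. General neuron markers (8 of 8 measured) summed to 355 to 589 CPM in replicate 2 and 148 to 375 CPM in replicate 1. SNAP25 was under 0.5 CPM from 0.7 to 5 µM. LRP6, the WNT co-receptor that the ligases clear, had 128 to 170 CPM in the replicate 2 libraries and 21.1 to 76.2 CPM in the replicate 1 libraries of day 11. The part of these differences in the LGR4 and RNF43 values was not tested.

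**Figure D5:**
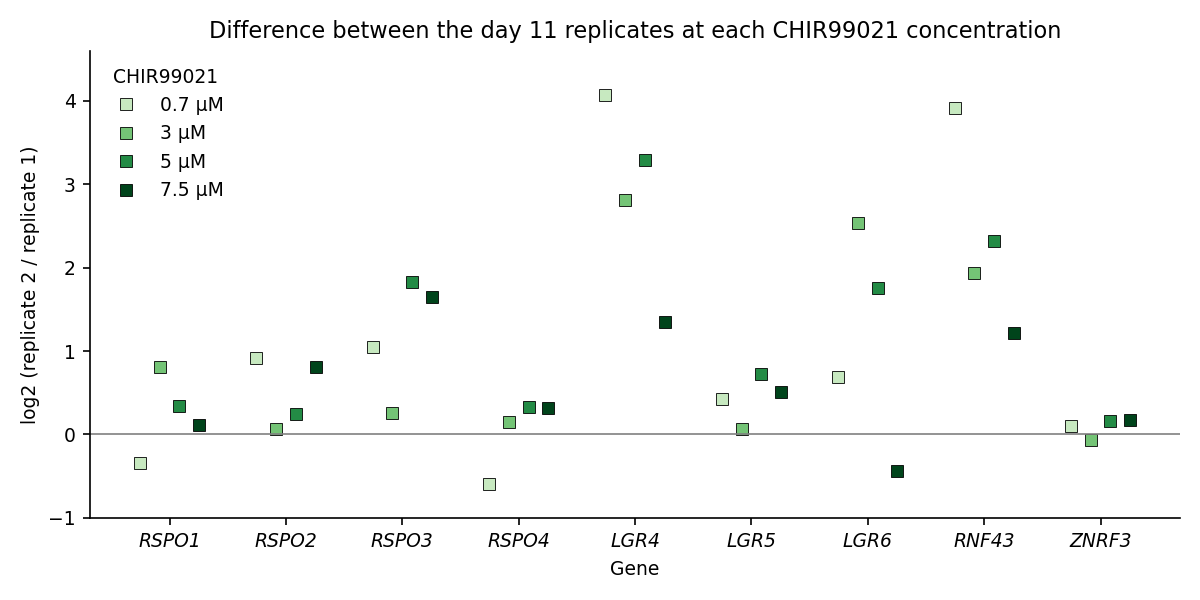
Log2 ratio of replicate 2 over replicate 1 (TMM-scaled) for each of the 9 genes at the 4 CHIR concentrations of day 11, one square per concentration. LGR4 lies between 1.35 and 4.07 and RNF43 between 1.22 and 3.91, while ZNRF3 lies between −0.07 and 0.17.

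Other genes of the pathway were read from lists. Of 19 WNT feedback and target genes, 11 rose and 1 fell at 7.5 µM against 0.7 µM in the blocked fit, with a median log2 fold change of 2.05, against 0.07 over all genes tested. NOTUM, which removes the lipid from WNT proteins, had 28.0 and 21.5 CPM at 7.5 µM, against 0.585 and 0.290 CPM at 0.7 µM (log2 fold change 5.72 ± 0.46, SE, adjusted p = 0.000299). The WNT-induced transcription factor SP5 rose by 5.65 ± 0.59 and the WNT inhibitor APCDD1 by 5.15 ± 0.37 on the log2 scale. FGF20 had 1.19 and 3.06 CPM at 7.5 µM and was at 0 and 0.045 CPM at 0.7 µM. SFRP1, a secreted WNT antagonist, was the gene of this list that fell (−1.80 ± 0.24, adjusted p = 0.00237). The count of rises was 8 of 19 at 5 µM and 1 of 19 at 3 µM, each against 0.7 µM.

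Of 30 cell surface partners (Frizzled receptors, co-receptors, Dishevelled proteins, syndecans, glypicans and others), 5 rose and 4 fell at 7.5 µM against 0.7 µM, with a median log2 fold change of −0.02. FZD10 had 65.6 and 45.02 CPM at 7.5 µM, against 3.65 and 4.98 CPM at 0.7 µM (log2 fold change 3.40 ± 0.39, SE, adjusted p = 0.00105). GPC3, a heparan sulphate proteoglycan, had 25.6 and 16.8 CPM at 7.5 µM, against 217 and 74.9 CPM at 0.7 µM (−2.80 ± 0.29, adjusted p = 0.000727). SDC4, a syndecan that binds R-spondin 3 in Xenopus, fell by 1.76 on the log2 scale, with 33.9 and 50.5 CPM at 7.5 µM, against 87.3 and 179 CPM at 0.7 µM. ROR1, a WNT5A receptor, rose by 1.85 ± 0.45 (adjusted p = 0.0289).

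Markers of other regions and cell types moved with CHIR beside the R-spondin genes. Dorsal and roof plate markers (10 of 10 measured) summed to 135 to 162 CPM at 7.5 µM, against 11.1 to 14.9 CPM at 0.7 µM, and 6 of 10 rose. The genes that rose were ZIC1, ZIC4, PAX3, PAX7, BMP6 and WNT3A, while GDF7, GDF10, MSX2 and BAMBI did not pass. ZIC1 (80.9 and 37.2 CPM), PAX3 (18.6 and 40.3 CPM) and BMP6 (20.6 and 26.3 CPM) made up most of the 7.5 µM sum. WNT3A had only 1.099 and 0.904 CPM at 7.5 µM, and GDF7 1.129 and 3.117 CPM. Midbrain-hindbrain boundary markers (9 of 9 measured) summed to 169 to 323 CPM, against 19.0 to 28.6 CPM, and 6 of the 8 tested rose, with WNT1 under 0.5 CPM at both concentrations. Caudal and mesodermal markers (8 of 9 measured) summed to 24.3 to 34.2 CPM, against 0.80 to 1.32 CPM, and 2 of 6 tested rose, with MSGN1, CDX1, CDX4 and MESP1 under 0.5 CPM at both. The midbrain floor plate list split as 2 up and 3 down of 10, and the neural progenitor list as 1 up and 3 down of 10. Mesenchymal and vascular markers split as 3 up and 1 down of 7, and neural crest markers as 1 up and 1 down of 5. Choroid plexus markers had 1 up of 5, which was OTX2, a gene also counted in the midbrain floor plate list. Midbrain dopamine neuron markers had 1 up of 6, which was EN1, also counted in the midbrain-hindbrain boundary list. Of 8 neuron markers 1 was down, and of 5 pluripotency markers 0 passed. The part of any of these in the change of the 9 genes was not tested.

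The genes whose pattern over the 10 hPSC and day 11 libraries was most like that of each member were found by Pearson's r of log2(CPM + 0.5) among 16544 candidates, as a description without a test. For RSPO1 they were TAL2 (r = 0.997), PRKG1-AS1 (r = 0.993) and APCDD1 (r = 0.987). For ZNRF3 they were NKD1 (r = 0.989), an inhibitor of WNT signalling, PROX1-AS1 (r = 0.986) and OTX1 (r = 0.984). For RSPO2 they were SRGAP3, PLCD4 and TXNIP (r = 0.977 to 0.985), for RSPO3 EMX2OS, ZNF804B and KIAA1239 (r = 0.963 to 0.975) and for RSPO4 ANO9, IGFBP6 and BCAN (r = 0.967 to 0.973). For LGR4 they were DOCK9, FRY and FAM83B (r = 0.984 to 0.990), for LGR5 NPPA-AS1, ADIPOQ and CCNE2 (r = 0.963 to 0.967), for LGR6 GJB2, CCKBR and PLCB3 (r = 0.973 to 0.981) and for RNF43 RAB38, ABHD5 and FKBP14 (r = 0.978 to 0.984). The 10 libraries share cell line, group and replicate structure, and low counts of RSPO1, LGR5, LGR6 and RSPO3 enter these values; RSPO1 had 2 to 24 counts in 7 of the 10 libraries.

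Some of the 9 genes overlap others in the annotation, and whether counting used strand is not given. RNF43 overlaps SUPT4H1, on the same strand, at 54.5 to 123 CPM at day 11, and the antisense gene TSPOAP1-AS1, at 0.106 to 1.56 CPM. The antisense gene over LGR4 had at most 0.070 CPM, and the antisense genes over LGR5 and ZNRF3 at most 0.149 and 0 CPM. In the day 16 and day 30 libraries, by contrast, antisense genes held 33.2% to 40.3% of gene counts, against 0.259% to 0.355% in the hPSC and day 11 libraries, and TSPOAP1-AS1 had 475 to 734 CPM. For that reason the counts of the 9 genes at day 16 and day 30 (183 to 416 summed per library) were not read as levels and no test of them is given.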

How the data were processed

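Per the labels, total RNA of 14 libraries, 2 in each of 7 groups, was sequenced. The deposited values are whole-number read counts per gene. Among the tools in the submitters' processing notes, listed with no role or order, are HTSeq 0.5.3, featureCounts 1.4.2, STAR 2.4.2a and DESeq2 1.12.4, and the build is hg19. Which kit was used, and whether reads were counted by strand, is not given in the sources used here. In the hPSC and day 11 tables, 57445 gene entries were used, and 5 summary entries (37.4% to 44.3% of all counts) entered neither library sizes nor tests. Depth was 20.52 to 44.76 M gene counts per library, and 5.41 to 6.34 M at day 16 and day 30.

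The tests used edgeR 4.0.16 under R 4.3.3 with limma 3.58.1: filterByExpr, TMM scaling and robust quasi-likelihood F-tests over all genes that passed, with Benjamini-Hochberg adjustment at 0.05; all 9 genes passed the filter. The day 11 fits used the 8 day 11 libraries and those against hPSC all 10. SE is the log2 fold change over the square root of F. The main fit has no block. Because replicate numbers paired the day 11 libraries in the data (correlations 0.64 to 0.86; a code in the sample descriptions is also shared within each number), the fit with the block is given beside it. Between hPSC and day 11 the correlations were −0.18 to −0.11, and no pairing was used there. Alternatives were DESeq2 1.42.0, RLE scaling, no filter, and leaving out each library. Fits were tested on simulated data, which does not test whether the replicate difference was the same at every concentration in these libraries. Exon lengths and overlaps came from GENCODE 29 by gene identifier, on another build than the counts. A group of 1 to 3 counts gets a count ratio with an exact binomial 95% interval for counting error only.

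The 9 genes, the lists and the tests were chosen with earlier results of these data known, as was the choice to word day 11 changes by the blocked fit. Named beside the 9 genes are up to 4 passing genes of the WNT feedback and surface partner lists by size of change, genes that a result turns on, and the 3 genes most like each member in pattern.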

Additional observations from a re-analysis of the deposited data

Results flagged for a closer look

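Antisense genes took 33.217% of gene counts in the lowest and 40.28% in the highest of the 4 day 16 and day 30 libraries, above the 0.259% to 0.355% of the hPSC and day 11 libraries; this signal lies in data that the comparisons of the 9 genes do not use. In the same libraries, against all hPSC and day 11 libraries, GAPDH had 71.0 to 289.9 CPM, against 2304 to 9966 CPM, HPRT1 had 0.18 to 3.95 CPM, against 31.2 to 56.7 CPM, and SOX2 and DVL3 were at 0 CPM, against 132 to 443 CPM and 68.2 to 116 CPM; these genes were chosen after their values were seen. The labels do not say how these tables were counted. What the difference comes from was not tested.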

How the results depend on the processing

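With the replicate block, which follows the paired numbers of the day 11 libraries, edgeR called 1967, 211, 4 and 1221 genes in 7.5 against 0.7, 5 against 0.7, 3 against 0.7 and 7.5 against 5 µM and 222 for the slope, against 0, 0, 0, 0 and 25 with no replicate block. DESeq2 called 659, 129, 16, 193 and 330 without the block and 3006, 614, 191, 2759 and 812 with it. With no filter on low counts the unblocked calls were 29 and 6 in the first 2 comparisons, and the blocked calls were 3391, 783, 320, 3136 and 383. Leaving out 1 library of a comparison gave 754 to 5613, 50 to 179, 0 to 59, 5 to 5828 and 2 to 251 blocked calls, and 0 to 29 unblocked calls for the slope. Against hPSC, 7.5 µM had 3987 calls with the replicate block, 6838 with a block within day 11 only, 3537 with DESeq2 and 249 to 404 with 1 library left out; 0.7 µM had 5282, 9064, 4400 and 115 to 1590. Day 30 against day 16 had 1702 calls (1067 with the replicate block, 1749 with crossed numbers, an alternative chosen after seeing the data, and 39 to 8078 with 1 library left out), in tables whose counts of the 9 genes were not tested.

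Of the 9 genes, RSPO1 and LGR5 kept their blocked calls at 7.5 against 0.7 µM under DESeq2, RLE scaling, no filter and each library left out. Signs turned only for log2 fold changes that had not passed the test. With 1 library left out and no block, LGR4 ran from −3.98 to 0.10 (7.5 against 0.7 µM), −3.80 to 1.84 (5 against 0.7 µM), −2.46 to 2.75 (3 against 0.7 µM, with 0.40 without replicate 1 of 3 µM), −2.62 to 0.67 (7.5 against 5 µM) and −2.47 to 1.61 (0.7 µM against hPSC). At 5 against 0.7 µM, RSPO3 ran from −1.25 to 1.28 (−0.04 without replicate 1 of 0.7 µM) and RNF43 from −0.16 to 4.75. At 3 against 0.7 µM, RSPO2 ran from −0.81 to 0.12, LGR6 from −1.62 to 1.93 and RNF43 from −0.25 to 4.35, and at 7.5 against 5 µM LGR6 ran from −1.85 to 0.20 and RNF43 from −0.96 to 1.42 (0.31 without replicate 1 of 7.5 µM). With the replicate block and 1 library left out, LGR6 ran from −0.61 to 2.14 (7.5 against 0.7 µM), −1.11 to 1.63 (3 against 0.7 µM) and −2.20 to 0.54 (7.5 against 5 µM). In that fit RSPO4 ran from −0.83 to 0.05 and RSPO3 from −0.44 to 0.64 (5 against 0.7 µM), LGR4 from −0.67 to 0.91 (3 against 0.7 µM, with 0.04 without replicate 2 of 3 µM) and RNF43 from −0.53 to 0.80 (7.5 against 5 µM). RNF43 at 7.5 against 5 µM was 0.20 with the replicate block and −0.16 without it. LGR4 at 0.7 µM against hPSC was 0.69, but −0.65 with the replicate block and −0.31 with the block within day 11. The cause of these shifts was not tested. With TMM-scaled CPM, 42 of 45 group levels moved by less than 1 SD. With 2 libraries per group, and under 30 counts of RSPO1, LGR5, LGR6 or RSPO3 in most libraries, small differences of these genes were not detectable.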
